A study of Mus musculus with 16 samples.

Results

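The response to oxygen–glucose deprivation (OGD) was described in primary mouse cortical neurons that had received tianeptine (TIA) beforehand. The members are the 4 OGD-TIA cultures (numbered 13 to 16) and the 4 CONTROL-TIA cultures (5 to 8), 8 of the 16 cultures of the series, chosen by their labels and not by any measured value. Wild-type cortical cells of mouse embryos at E15 were grown in neurobasal medium with B27, and all 8 cultures were given 10 μM TIA on DIV 8. After 24 h, on DIV 9, OGD-TIA cultures underwent 3 h of OGD and CONTROL-TIA cultures a sham procedure, and RNA of both was taken after 6 h of reoxygenation. The other 8 cultures received vehicle in place of TIA (4 CONTROL-VEH and 4 OGD-VEH) and are used below only for comparison. Each culture was a biological replicate. Because CONTROL-TIA cultures carry the drug too, the comparison measures OGD in the presence of TIA and not an effect of the drug.

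OGD removes oxygen and glucose from the medium and is used as a cell culture model of ischemic stroke. After such an insult, neurons are known to activate p53, which drives genes of cell cycle arrest and apoptosis, and stress-activated kinases, which drive immediate early genes and the AP-1 factors of the Fos and Jun families. Injured brain tissue also makes chemokines, matrix proteins and antioxidant enzymes, while genes of synapses and ion channels are often reduced. TIA is an atypical antidepressant.

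Expression is given as FPKM (fragments per kilobase of transcript, scaled to the size of the library), summed over the isoforms of a gene. Log2 fold changes are of FPKM plus 0.1, which understates the change of low genes. The promoters of the genes that separated the groups most clearly are shown first. In the RefSeq promoter table (GRCm38.p6, from 250 bases before to 50 bases after each start site), an entry was found for 12 of the 15 higher and 9 of the 16 lower genes named for the size and certainty of their change. The AP-1 motif TGANTCA and the cAMP response element TGACGTCA were searched, each of which reads alike on both strands, and neither contains the other. The AP-1 motif occurred in 3 of 12 higher genes (*Emp1*, *Gbp2* and *Mvp*), in 0 of 9 lower genes, and in 8.97% of all genes with a promoter entry. The cAMP response element occurred in 1 of 12 higher genes (*Nectin2*, 40 bases after the start site), in 0 of 9 lower genes and in 2.03% of all genes. Stretches upstream of these starts are printed with the motif in capitals, for the 3 higher genes that held it and for *Crhbp*, a lower gene that did not. A second AP-1 motif of *Emp1* began 25 bases before the start, outside the stretch shown.
Emp1, chr6:135362744-135362903, plus strand: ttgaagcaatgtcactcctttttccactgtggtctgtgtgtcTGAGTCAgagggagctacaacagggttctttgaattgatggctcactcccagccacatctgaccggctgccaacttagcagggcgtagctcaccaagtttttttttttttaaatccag
Gbp2, chr3:142620442-142620601, plus strand: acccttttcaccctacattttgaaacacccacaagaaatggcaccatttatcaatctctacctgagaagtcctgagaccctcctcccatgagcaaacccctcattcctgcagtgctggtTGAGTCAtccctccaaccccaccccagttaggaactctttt
Mvp, chr7:127014622-127014781, minus strand: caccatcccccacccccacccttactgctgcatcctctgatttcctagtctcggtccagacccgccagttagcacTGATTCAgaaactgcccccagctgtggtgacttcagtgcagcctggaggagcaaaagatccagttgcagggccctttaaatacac
Crhbp, chr13:95444925-95445081, minus strand: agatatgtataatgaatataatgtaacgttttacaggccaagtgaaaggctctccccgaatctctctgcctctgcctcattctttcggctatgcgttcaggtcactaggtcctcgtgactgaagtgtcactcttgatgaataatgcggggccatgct
These matches describe letters in a window and not sites known to be bound.

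Culture OGD-TIA 16 stood apart from the others before any comparison was made. Over the genes tested, its log2 values correlated with those of OGD-TIA 13, 14 and 15 at a Pearson r of 0.948 to 0.954, while the other 3 correlated among themselves at 0.967 to 0.969 and the CONTROL-TIA cultures at 0.963 to 0.97 (correlations across genes, given as a description). Neuron markers were present in all 8 cultures, as labelled, and had the highest summed level of the marker lists. Their summed level over 8 genes, among them *Map2*, *Tubb3* and *Rbfox3*, was 2110 to 2280 FPKM in CONTROL-TIA, 2050, 2050 and 2170 FPKM in OGD-TIA 13, 14 and 15, and 1340 FPKM in OGD-TIA 16. The 6 astrocyte markers summed to 398 to 476 FPKM in CONTROL-TIA, 481 to 583 FPKM in OGD-TIA 13 to 15 and 1220 FPKM in OGD-TIA 16. The 8 oligodendrocyte lineage markers summed to 159 to 194, 225 to 277 and 438 FPKM in the same order. Thus OGD-TIA 16 had the lowest sum of neuron markers and the highest sums of astrocyte and oligodendrocyte lineage markers of the 8 cultures. Such sums are led by their most abundant genes, and single markers need not follow them. *Map2* overlapped between the groups, at 578 to 732 FPKM in CONTROL-TIA and 518 to 643 FPKM in OGD-TIA. In these bulk samples, fewer cells of a type and less RNA per cell cannot be told apart. The 8 microglia markers summed to 8.11 to 11.7 FPKM, with OGD-TIA 16 lowest at 8.11 FPKM. *Cx3cr1* was at 0 in 7 of 8 cultures and *C1qb* in 5. The 5 endothelial markers summed to 0.48 to 1.14 FPKM, with *Cldn5* at 0 in 6 cultures, and the 6 fibroblast and mural cell markers to 8.52 to 16.3 FPKM. Counts of the gene lists, and the values of genes in which OGD-TIA 16 departed most, are therefore given with and without it. The astrocyte and oligodendrocyte lineage marker levels of OGD-TIA 16 move with many of the results, and their part in them was not tested. The depth of the 8 libraries was estimated from the steps of low FPKM values, and not from counts of aligned reads, at 22.1 to 26.0 M reads, at which 1 read on a transcript of 1 kilobase is worth 0.0385 to 0.0453 FPKM.

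**Figure D1:**
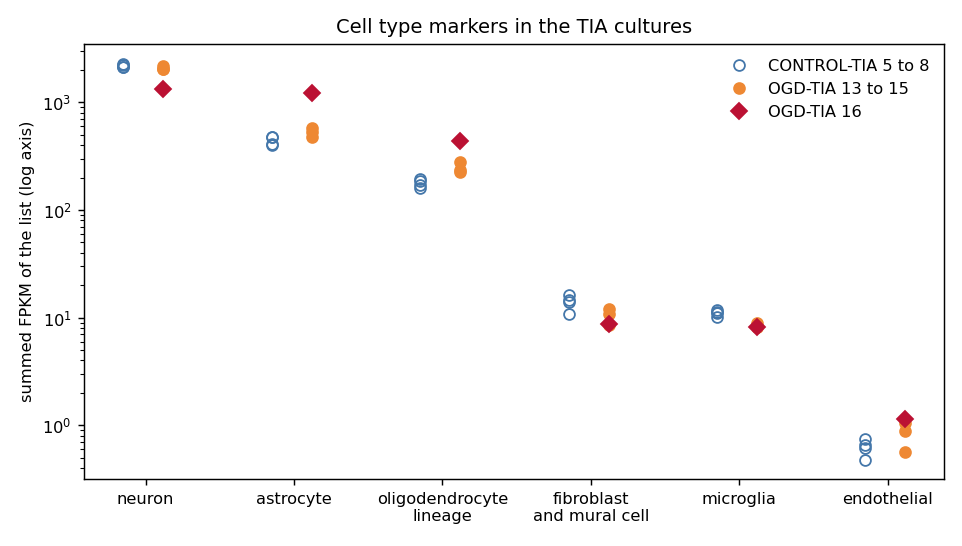
Summed FPKM of each cell type marker list (y axis, logarithmic) in the 8 cultures that received TIA, with CONTROL-TIA as open circles, OGD-TIA 13 to 15 as filled circles and OGD-TIA 16 as a diamond. Culture 16 was lowest for neuron markers (1340 FPKM) and highest for astrocyte markers (1220 FPKM).

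The first question was which genes responded to OGD when TIA was present. Of 16242 genes tested with all 8 cultures, 0 were DEGs (padj 0.05 or lower by limma, with expression changed by 1 or more on the log2 scale), and the smallest padj was 0.0741. Leaving out single cultures also gave 0 DEGs, except for OGD-TIA 16, described below, and for CONTROL-TIA 7, without which 2 genes were downregulated. At an unadjusted p under 0.05, 1888 genes (11.6%) were higher in OGD-TIA and 1286 (7.92%) were lower. The share of higher genes among these, 59.5%, was 48.4% (1526 higher and 1630 lower) when cultures were scaled by the median ratio in place of TMM. The groups did not overlap in 1544 higher genes (9.51%) and 1092 lower genes (6.72%), for which an exact two-sided permutation test over the 8 cultures gives its smallest possible p, 0.0286. In 184 genes (1.13%), the groups did not overlap and the log2 fold change between their means was 1 or more, and in 135 genes (0.831%) they did not overlap and it was -1 or less. Of the 184 genes 142 are protein-coding and 25 are pseudogenes, and of the 135 genes 106 are protein-coding and 10 are pseudogenes.

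With OGD-TIA 16 left out, 16 of 16187 genes tested (0.0988%) were DEGs, of which 10 (0.0618%) were upregulated and 6 (0.0371%) downregulated, and the smallest padj was 0.0357. An unadjusted p under 0.05 was reached by 1804 higher genes (11.1%) and 1363 lower genes (8.42%). Of the genes higher at this p with 8 cultures and tested in both fits, 78.8% were so without culture 16, as were 80.1% of the lower genes, and 0 genes changed sign. The fits share all cultures but culture 16, and the first chose the genes, so high shares and kept signs are largely built in. The change itself was smaller: the median log2 fold change of the separated higher genes tested in both fits went from 1.34 to 1.12, and that of the lower genes from -1.2 to -1.08. These genes too were chosen with culture 16 included, which by itself can make the change smaller without it. Culture 16 was the most extreme OGD-TIA culture in 64.8% of the genes higher at an unadjusted p under 0.05, where it was the highest of the 4 in 38.4% of all genes. It was the most extreme in 61.9% of the lower genes, against 33.6% of all genes.

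Among the 12 separated higher genes with the smallest p, the largest log2 fold changes were those of *Gbp2*, *Emp1*, *Timp1* and *Cd44*. *Emp1* (chromosome 6, 135362545 to 135383173), which encodes a membrane protein of the PMP22 family, was at 1.28, 1.05, 0.858 and 0.806 FPKM in CONTROL-TIA 5 to 8 and at 6.81, 7.02, 5.52 and 17.5 FPKM in OGD-TIA 13 to 16. All OGD-TIA cultures were above all controls, and culture 16 was far above the other 3. The log2 fold change was 2.95 (standard error 0.35, padj = 0.0741), and without culture 16 it was 2.59 (standard error 0.18, padj = 0.0357), so that *Emp1* was then the DEG with the smallest padj. *Gbp2* (chromosome 3, 142620602 to 142638008), an interferon-induced GTPase, was at 0.294, 0.142, 0.152 and 0.147 FPKM in the controls and at 1.44, 2.26, 2.21 and 4.45 FPKM after OGD. CONTROL-TIA 5 was the highest control and still lay below every OGD-TIA culture. Its log2 fold change was 3.16 (standard error 0.36, padj = 0.0741) with 8 cultures and 2.87 (padj = 0.0472) without culture 16. *Timp1* (chromosome X, 20870166 to 20874735), an inhibitor of matrix metalloproteinases, went from 0.585, 0.272, 0.283 and 0.454 FPKM to 3.01, 2.26, 1.44 and 4.42 FPKM (log2 fold change 2.47, standard error 0.37). *Cd44* (chromosome 2, 102811141 to 102901665), the receptor for hyaluronan, went from 3.83, 2.91, 2.51 and 2.53 FPKM to 7.03, 11.4, 9.62 and 20.5 FPKM (log2 fold change 1.91, standard error 0.31). In both genes the lowest OGD-TIA culture was above the highest control, and the log2 fold change without culture 16 was 2.22 and 1.63.

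Among the other 8 higher genes, culture 16 did not lead throughout. *Mvp*, the major vault protein, was at 0.712 to 0.876 FPKM in the controls and at 2.1, 1.94, 1.73 and 2.42 FPKM in OGD-TIA 13 to 16 (log2 fold change 1.26, and 1.18 without culture 16). *Eif4ebp1*, a repressor of cap-dependent translation, went from 8.3 to 11 FPKM in the controls to 15.5, 21.1, 18.5 and 26.4 FPKM (log2 fold change 1.07). *Ckap2*, a protein of the mitotic spindle, went from 4.22 to 6.38 FPKM to 10.5, 12.3, 10.5 and 15.5 FPKM (log2 fold change 1.18). *Nectin2*, a cell adhesion molecule, was at 14.6 to 19.7 FPKM and at 43.1, 54.3, 35.9 and 37 FPKM, with culture 16 among the lower OGD-TIA cultures. The log2 fold change of *Nectin2* with TIA, 1.29, rested on how reads were divided between its 3 isoforms, and was 0.40 when isoforms were weighted by length. The same weighting took *Hmg20b*, a partner of the LSD1 histone demethylase, from 1.21 to 0.71, *Tcirg1*, a subunit of the vacuolar proton pump, from 1.41 to 0.67 and *Fam53b* from 1.33 to 0.67. *Gm20219*, a predicted gene, had 1 isoform and a log2 fold change of 1.21, and OGD-TIA 13 was its highest culture at 6.98 FPKM.

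The 12 lower genes with the smallest p held several genes that cortical neurons use. *Acsl5* (chromosome 19, 55251938 to 55297720), which activates long-chain fatty acids, was at 14.8, 15.9, 8.42 and 25.6 FPKM in CONTROL-TIA and at 1.62, 1.87, 1.49 and 2.54 FPKM in OGD-TIA. The groups lay far apart, with culture 16 closest to the controls, and the log2 fold change was -2.96 (standard error 0.32, padj = 0.0741) and -3.11 without culture 16 (padj = 0.0472). With isoforms weighted by length it was -1.02. In vehicle cultures *Acsl5* varied widely within both groups, which overlapped. It was at 14.6, 4.33, 15 and 2.31 FPKM in CONTROL-VEH and at 1.54, 2.01, 1.84 and 35.5 FPKM in OGD-VEH. The vehicle log2 fold change was -0.83 (standard error 1.05), and whether OGD caused the gap with TIA was not tested further. *Crhbp* (chromosome 13, 95431371 to 95444924), which binds corticotropin-releasing hormone, was at 2.36, 1.61, 1.71 and 2.32 FPKM and at 0.847, 0.291, 0.546 and 0.349 FPKM (log2 fold change -1.86, standard error 0.31). *Slc30a3* (chromosome 5, 31086106 to 31108237), which loads zinc into synaptic vesicles, was at 1.49, 1.86, 1.65 and 2.43 FPKM and at 0.515, 0.53, 0.752 and 0.361 FPKM (log2 fold change -1.63, standard error 0.25). *Crym*, which binds thyroid hormone, was at 11.6 to 16.9 FPKM and at 7.44, 6.93, 5.98 and 5.64 FPKM (log2 fold change -1.12). In these 3 genes every OGD-TIA culture was below every control, and without culture 16 the log2 fold changes were -1.74, -1.48 and -1.06. *Mfsd4a*, a membrane transporter, had the narrowest OGD-TIA group of the 12, at 0.396, 0.357, 0.369 and 0.427 FPKM against 1.08 to 1.43 FPKM in the controls (log2 fold change -1.42). The rest were *Acbd4*, *Smim17*, *Vstm5*, *A830018L16Rik*, *2900055J20Rik*, *Hist1h2ac* and *H2-Q2*, with log2 fold changes from -1.62 to -1.02, of which those of *A830018L16Rik* and *Smim17* were -0.85 and -0.73 with isoforms weighted by length. *Hist1h2ac* and *H2-Q2* belong to families of near-identical genes, and their values are uncertain where the isoform estimate could divide reads among relatives.

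**Figure D2:**
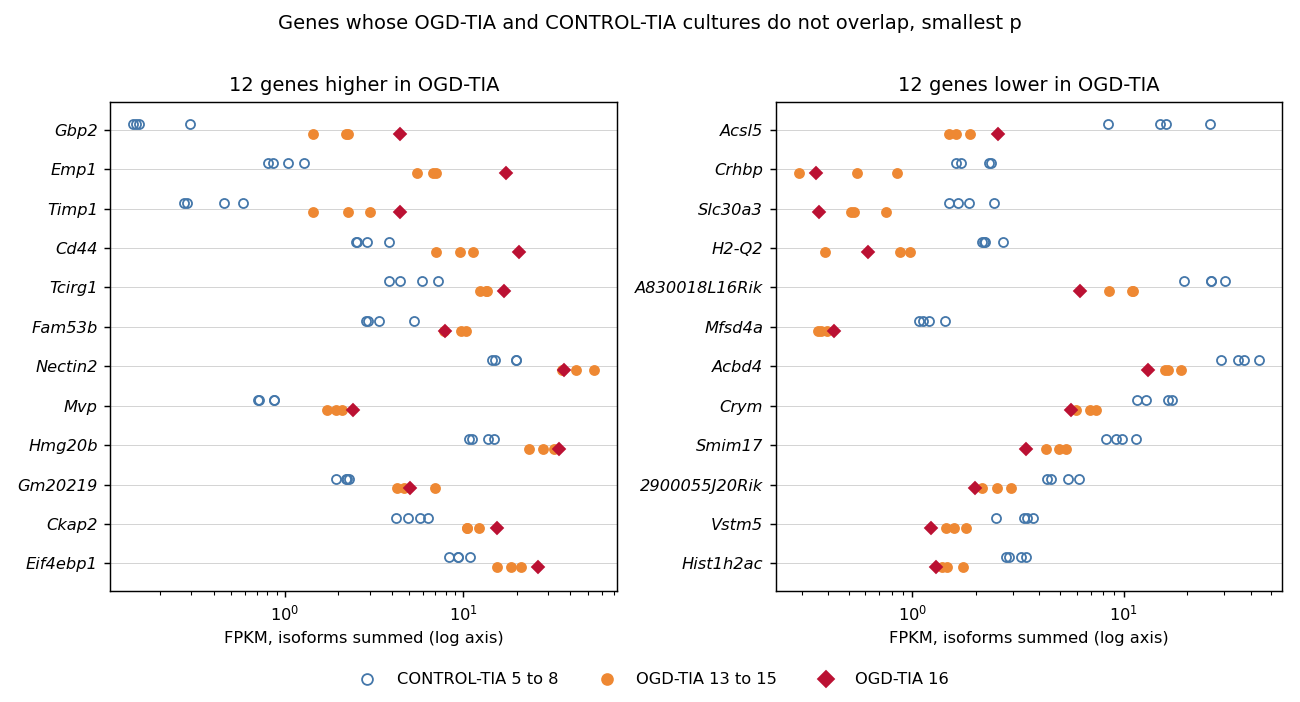
FPKM of single cultures (x axes, logarithmic) for the 12 higher and 12 lower protein-coding genes with the smallest p among those whose groups did not overlap, with CONTROL-TIA 5 to 8 as open circles, OGD-TIA 13 to 15 as filled circles and OGD-TIA 16 as diamonds. Culture 16 is the highest point for *Emp1* (17.5 FPKM) and *Cd44* (20.5 FPKM) but not for *Nectin2* or *Gm20219*.

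The 16 DEGs found without culture 16 were of more than one kind. *Emp1*, *Gbp2*, *Fst* and *Slc6a7* moved further in culture 16 than in cultures 13 to 15. *Fst*, which encodes follistatin, an antagonist of activin, was at 7.01 to 9.03 FPKM in the controls, at 3.8, 3.3 and 3.85 FPKM in OGD-TIA 13 to 15 and at 1.19 FPKM in OGD-TIA 16 (log2 fold change -1.14 without culture 16, padj = 0.0472). *Slc6a7*, a transporter that returns proline to neurons, was at 7.08 to 8.8 FPKM, at 4.08, 3.31 and 3.62 FPKM and at 1.6 FPKM (log2 fold change -1.11, padj = 0.0472). *Spx*, *Pigz* and *Gm12166* were high in cultures 13 to 15 alone. *Spx*, the neuropeptide spexin, was at 2.3, 3.28, 1.84 and 2.39 FPKM in the controls, at 9.61, 8.74 and 9.78 FPKM in OGD-TIA 13 to 15 and at 3.28 FPKM in OGD-TIA 16, level with the highest control. *Pigz*, which adds mannose to GPI anchors, was at 1.06 to 1.34 FPKM, at 3.96, 3.08 and 4.58 FPKM and at 0.719 FPKM in culture 16, below every control. *Gm12166* was at 1.71 to 2.42 FPKM, at 6.14, 5.16 and 5.28 FPKM and at 1.82 FPKM. The log2 fold changes of these 3 genes without culture 16 were 1.92, 1.60 and 1.34. With all 8 cultures they were 1.55, 1.04 and 0.96, and length weighting of the same 8 gave 0.75, 0.52 and 0.95. *Lmo7*, a protein of cell junctions, and *Thrsp*, a regulator of lipid synthesis, had log2 fold changes of -1.46 and -1.18 without culture 16 and of -1.26 and -1.03 with it, the value for *Lmo7* being -0.64 with length weighting. The remaining DEGs, named here after their values were seen because the set is small, were *Zcchc10*, *Zkscan5*, *Ltbp1*, *Gm10654* and *Gm43263*, which were upregulated, and *Gm47726*, which was downregulated, beside *Acsl5*.

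The number of DEGs depended on how culture 16 and the isoforms were treated. Array quality weights, by which limma gives less weight to cultures that depart from their group, gave culture 16 a weight of 0.197, against 0.857 to 1.87 for the others, and 80 DEGs (0.493% of genes, 49 upregulated and 31 downregulated). With isoforms weighted by their length, so that reads moved between isoforms of one gene hardly change its value, 73 DEGs were found (0.443%, 28 and 45), and 125 (0.762%, 66 and 59) when culture 16 was also left out. Of the 16 DEGs above, 15 were among the 80 and 8 among the 73. These alternatives use the same cultures and partly the same changes of method, so they are not independent and such overlap is partly built in. The genes called under all 4 of these alternatives were *Acsl5*, *Emp1*, *Fst*, *Gbp2*, *Gm43263*, *Ltbp1*, *Slc6a7* and *Thrsp*, none of them a DEG in the unweighted fit of all 8 cultures. Of these, *Ltbp1* anchors latent TGF-β in the matrix.

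Gene lists were described by their counts at an unadjusted p under 0.05 from limma, beside the 11.6% of all genes that were higher and the 7.92% that were lower, and by the median log2 fold change, which was 0.04 over all genes. Counts of 4 or fewer changed by at most 3 genes when single cultures were left out, and larger counts are given with each culture whose removal moved them by more than 1.5 times. Scores give the mean log2 difference of a list from the CONTROL-TIA mean in each culture. The lists were written with earlier results of these data known, and no list was tested.

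**Figure D3:**
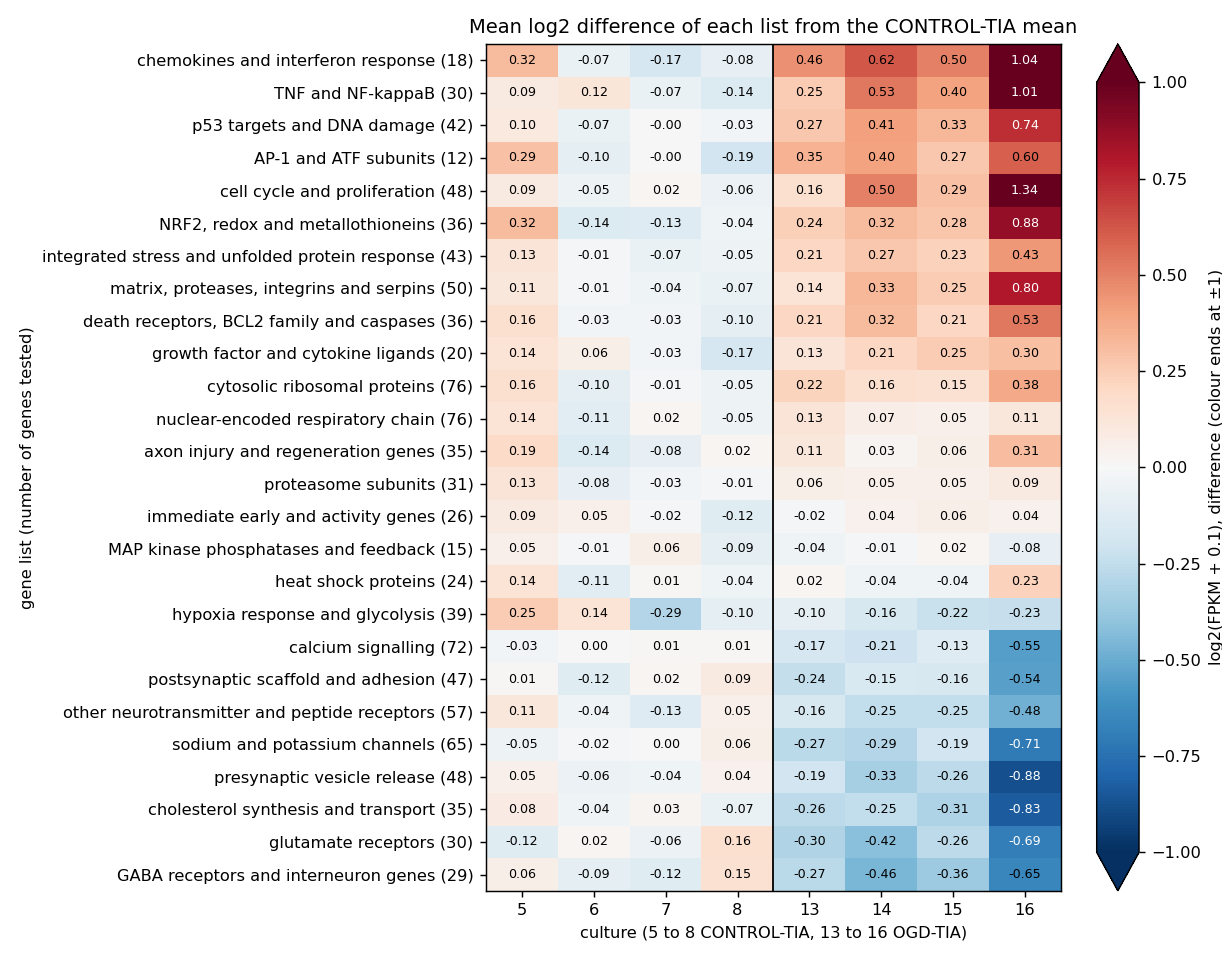
Mean log2 difference from the CONTROL-TIA mean (colour and number) for 26 gene lists (rows, with the number of genes tested) in the 8 cultures that received TIA (columns), ordered by the mean of OGD-TIA 13 to 15. Lists of inflammation, p53 and stress stand at the top and lists of synapses, channels and cholesterol synthesis at the bottom, with culture 16 at the extreme of most of them.

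Targets of p53 were mostly higher. Of 42 p53 targets and DNA damage genes tested, 25 were higher and 0 lower, with a median log2 fold change of 0.39, and without culture 16 there were 20 higher and 0 lower with a median of 0.33. Without CONTROL-TIA 7 the count was 16. The score was 0.27, 0.41, 0.33 and 0.74 in OGD-TIA 13 to 16, each above the highest control at 0.10. *Trp53* itself (chromosome 11, 69580359 to 69591873) was at 57, 65.3, 31.7 and 52.1 FPKM in CONTROL-TIA and at 94, 92.4, 83.4 and 120 FPKM in OGD-TIA, with no overlap. Its log2 fold change was 0.95 (standard error 0.22, padj = 0.12), and 0.85 without culture 16. *Pidd1*, a target of p53 that assembles a caspase-2 platform, was at 2.81 to 5.44 FPKM and at 6.19, 9.86, 10.9 and 12.7 FPKM (log2 fold change 1.31). *Igfbp3*, which binds insulin-like growth factors, was at 40.1 to 49.5 FPKM and at 59.8, 73.6, 64.2 and 69.4 FPKM (log2 fold change 0.56), with culture 16 among the others.

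Of 36 death receptors, BCL2 family members and caspases tested, 10 were higher and 3 lower, and 7 and 2 without culture 16. The receptor *Fas* (chromosome 19, 34290666 to 34327772) was at 0.514, 0.433, 0.537 and 0.693 FPKM in the controls and at 0.901, 1.68, 1.6 and 5.13 FPKM after OGD. The groups did not overlap, although OGD-TIA 13 was close to the highest control and culture 16 was far above the others, and the log2 fold change went from 1.65 (standard error 0.46) to 1.18 (standard error 0.27) without culture 16. *Tnfrsf10b*, the mouse TRAIL receptor, was at 0.853, 0.931, 1.38 and 0.845 FPKM and at 1.34, 2.19, 2.33 and 4.07 FPKM, so that OGD-TIA 13 was just below CONTROL-TIA 7. Its log2 fold change was 1.15, and 0.89 without culture 16. *Casp8*, the initiator caspase of these receptors, was under the filter on low values, at 0.054 to 0.168 FPKM and at 0.236, 0.466, 0.329 and 0.939 FPKM, with a log2 fold change of 1.36 in a fit without filter (padj = 0.251). *Tnfrsf12a*, the receptor for TWEAK, went from 3.68 to 10.3 FPKM to 15.1, 15.9, 14.2 and 27.8 FPKM (log2 fold change 1.36, and 1.14 without culture 16). *Birc5*, the inhibitor of apoptosis survivin, which also serves cell division, went from 5.3 to 6.12 FPKM to 8.86, 9.74, 7.96 and 16.2 FPKM (log2 fold change 0.83, and 0.61 without culture 16). *Casp1*, the inflammatory caspase, was among the lower genes, at 0.729 to 1.21 FPKM and at 0.354, 0.607, 0.515 and 0.792 FPKM with overlap (log2 fold change -0.71), and so was *Bnip3l*, a mitophagy receptor (log2 fold change -0.38).

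The 18 chemokine and interferon genes tested scored 0.46, 0.62, 0.50 and 1.04 in OGD-TIA 13 to 16, against -0.17 to 0.32 in the controls, where CONTROL-TIA 5 was highest, and 6 were higher and 2 lower (6 and 1 without culture 16). Their median log2 fold change was lower than these means, at 0.23, and 0.12 without culture 16. For 30 genes of TNF and NF-κB signaling the scores were 0.25, 0.53, 0.40 and 1.01, and 7 were higher and 0 lower (5 and 1 without culture 16), with a median of 0.39, and 0.18 without culture 16. *Cxcl10*, a chemokine that attracts T cells, was at 0.508, 0.289, 0.21 and 0.277 FPKM in the controls and at 0.884, 4.4, 2.75 and 6.79 FPKM after OGD (log2 fold change 2.90, standard error 0.56, and 2.51 without culture 16). *Ccl2*, which attracts monocytes, was at 0.064 to 0.14 FPKM and at 0.344, 2.43, 0.747 and 2.99 FPKM (log2 fold change 2.79, standard error 0.62, and 2.38 without culture 16). In both genes OGD-TIA 13 was lowest and cultures 14 and 16 were highest, and the groups did not overlap. The neuronal chemokine *Cx3cl1* was lower, at 112 to 179 FPKM and at 101, 88.9, 96.4 and 85.3 FPKM (log2 fold change -0.52), and *Cxcl12* was lower with overlap (log2 fold change -0.39).

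The AP-1 and ATF subunits were divided. Of 12 tested, 3 were higher and 1 lower, with and without culture 16. The lower count was 0 without CONTROL-TIA 5 or 8 or OGD-TIA 13, 14 or 15. The log2 fold change was above 0 in 5 of the 12, with a median of -0.02. A few large increases set the score, at 0.35, 0.40, 0.27 and 0.60 in OGD-TIA 13 to 16, against -0.19 to 0.29 in the controls. *Fosl1*, whose protein Fra-1 pairs with Jun, was at 0.462, 0.054, 0.114 and 0.049 FPKM in CONTROL-TIA and at 1.52, 1.56, 1.24 and 3.99 FPKM in OGD-TIA (log2 fold change 3.10, standard error 0.53, and 2.74 without culture 16). *Fos* was at 1.57 to 2.44 FPKM and at 2.95, 3.27, 3.3 and 5.83 FPKM (log2 fold change 0.87, and 0.65 without culture 16). *Jun* was lower, at 43.4, 31.1, 36.2 and 42.7 FPKM and at 25.5, 26.8, 24.7 and 36.7 FPKM, where culture 16 overlapped the controls (log2 fold change -0.44, and -0.56 without culture 16). The list of 26 immediate early and activity genes had a median log2 fold change of -0.01, with 4 higher and 3 lower, with and without culture 16. *Gadd45b* was higher (log2 fold change 0.68), while *Npas4*, a factor driven by synaptic activity, was at 2.79 to 3.36 FPKM and at 1.91, 2.04, 2.2 and 1.98 FPKM, in a narrow group without overlap (log2 fold change -0.58). *Egr3* was lower with overlap (log2 fold change -0.98). Among 15 MAP kinase phosphatases and feedback genes, *Dusp4* (log2 fold change 0.83, and 0.59 without culture 16) and *Dusp5* (0.52) were higher and 3 were lower, counts that were the same without culture 16, among them *Dusp1* (-0.53) and *Dusp8* (-0.56). Among 20 growth factor and cytokine ligands, 6 were higher and 2 lower (4 and 1 without culture 16). *Hbegf*, a ligand of the EGF receptor, was at 8.12 to 10.3 FPKM and at 14.3, 13.4, 12.1 and 17.7 FPKM (log2 fold change 0.58), and *Inhbb*, an activin subunit, at 5.15 to 6.37 FPKM and at 7.84, 7.4, 7.67 and 7.87 FPKM (log2 fold change 0.41). *Vegfa* and *Pdgfb* were lower (-0.44 and -0.82, the latter -0.49 without culture 16).

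Of 36 genes of NRF2, redox and metallothioneins, 15 were higher and 1 lower with a median log2 fold change of 0.25 (12 and 2 without culture 16, with a median of 0.18). The score was 0.24, 0.32, 0.28 and 0.88 in OGD-TIA 13 to 16, and CONTROL-TIA 5, at 0.32, was level with or above cultures 13 to 15. Without CONTROL-TIA 6 the count of higher genes was 8, and without CONTROL-TIA 7 it was 9. *Nfe2l2*, the factor NRF2, was at 9.95, 8.57, 8.32 and 7.95 FPKM and at 15.6, 18.2, 15.3 and 39.2 FPKM (log2 fold change 1.22, and 0.91 with padj = 0.0472 without culture 16). *Gclm*, which serves glutathione synthesis, was at 97.7, 51.1, 60.7 and 64 FPKM and at 125, 173, 165 and 342 FPKM (log2 fold change 1.49). *Hmox1*, heme oxygenase-1, was at 114, 19.9, 19.8 and 21.5 FPKM and at 66.8, 105, 101 and 252 FPKM. CONTROL-TIA 5 stood apart from the other controls and overlapped the OGD-TIA cultures, and the log2 fold change was 1.88 with it and 2.50 without it, and 1.50 without OGD-TIA 16. In the integrated stress and unfolded protein response, 9 of 43 genes were higher and 0 lower (11 and 0 without culture 16, and 14 and 1 without OGD-TIA 13), among them *Sesn2* (0.68) and *Slc7a5* (0.33), an amino acid transporter. Heat shock proteins gave 3 higher and 3 lower of 24 (3 and 4 without culture 16). *Hspb1* was at 0.418 to 0.645 FPKM and at 1.77, 0.786, 1.09 and 4.24 FPKM (log2 fold change 1.47, and 1.02 without culture 16), and *Hsph1* was lower (-0.44).

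Most cytosolic ribosomal protein genes were higher, by small amounts. Of 76 tested, 47 were higher and 0 lower, with a median log2 fold change of 0.24, and 40 and 1 without culture 16 (median 0.19). *Rpl3* was at 896, 770, 867 and 799 FPKM and at 1120, 1030, 1000 and 1050 FPKM (log2 fold change 0.34), and *Rps18* at 979, 874, 884 and 915 FPKM and at 1190, 1060, 1170 and 1320 FPKM (log2 fold change 0.38). In both genes the groups did not overlap, and culture 16 did not depart from the others in *Rpl3*. CONTROL-TIA 5 had the highest score of the controls for this list (0.16), equal to OGD-TIA 14 and above OGD-TIA 15. These genes have many near-identical pseudogenes, which limits single values. For 76 nuclear-encoded subunits of the respiratory chain, 6 were higher, with and without culture 16, a count that was 14 without CONTROL-TIA 5, 0 without CONTROL-TIA 6, 1 without CONTROL-TIA 7 or 8 and 2 without OGD-TIA 13, and for 31 proteasome subunits 1 was higher (0 without culture 16).

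In genes of the cell cycle and of the matrix, culture 16 was far above the other cultures. Of 48 cell cycle genes, 19 were higher and 1 lower, and the score was 0.16, 0.50, 0.29 and 1.34 in OGD-TIA 13 to 16. The median log2 fold change was 0.63, and 0.36 without culture 16 (16 higher and 2 lower). *Cdk6* was at 1.11 to 1.41 FPKM and at 2.36, 4.05, 2.42 and 5.48 FPKM (log2 fold change 1.34), and *Hmgb2*, a chromatin protein of dividing cells, at 67.6 to 98.9 FPKM and at 169, 121, 114 and 222 FPKM (log2 fold change 0.98). Astrocyte and oligodendrocyte lineage markers moved with this list, and their part in it was not tested: *Sox9* was at 15.6 to 18.6 FPKM and at 21.4, 25.9, 21.8 and 47.4 FPKM, and *Olig1* at 63.1 to 79.5 FPKM and at 99.9, 114, 97.8 and 150 FPKM. Of 50 genes of matrix, proteases, integrins and serpins, 13 were higher and 2 lower, but 7 and 5 without culture 16, 7 higher without CONTROL-TIA 5 and 8 without CONTROL-TIA 6. The median log2 fold change of this list was 0.27 with culture 16 and 0.00 without it. *Timp2* was lower, at 183 to 202 FPKM and at 153, 164, 140 and 124 FPKM (log2 fold change -0.40). *Mmp3* was listed at 0 in all 4 CONTROL-TIA cultures and at 0.112, 0.021, 0 and 0.093 FPKM in OGD-TIA 13 to 16. *Adamts7*, a matrix protease, was at 2.25 to 3.12 FPKM and at 3.23, 3, 4.59 and 5.88 FPKM with overlap (log2 fold change 0.55, and 0.37 without culture 16).

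Axon injury and regeneration genes went both ways, with 9 of 35 higher and 7 lower (9 and 8 without culture 16). The lower count was 3 without CONTROL-TIA 8 and 4 without OGD-TIA 14. Beside *Cd44*, *Tubb6* was higher (log2 fold change 1.01), and *Dclk1*, a kinase bound to microtubules, was at 474 to 550 FPKM and at 421, 408, 427 and 360 FPKM (log2 fold change -0.37).

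Of 30 glutamate receptor genes tested, 0 were higher and 12 lower with a median log2 fold change of -0.36, and 10 were lower without culture 16 (median -0.30). The score was -0.30, -0.42, -0.26 and -0.69 in OGD-TIA 13 to 16, and the lowest control was at -0.12. *Gria3*, an AMPA receptor subunit, was at 14.8, 16.3, 15.4 and 19.5 FPKM and at 12.2, 10.6, 11.6 and 11.7 FPKM (log2 fold change -0.51, and -0.52 without culture 16), and the groups did not overlap. *Grin1*, the obligatory NMDA receptor subunit, was at 199, 192, 228 and 215 FPKM and at 219, 160, 166 and 90.1 FPKM. Culture 13 was within the controls and culture 16 far below, and the log2 fold change was -0.46 (standard error 0.24) and -0.21 (standard error 0.12) without culture 16. Of 29 GABA receptor and interneuron genes, 0 were higher and 12 lower, both with and without culture 16 (7 lower without CONTROL-TIA 8). *Reln*, secreted by a class of interneurons, was at 69, 75.3, 45.4 and 50.7 FPKM and at 31.4, 34.6, 36.2 and 31.3 FPKM (log2 fold change -0.82), and *Gabbr1*, a GABA-B receptor subunit, at 479 to 569 FPKM and at 390, 398, 391 and 359 FPKM (log2 fold change -0.39). Culture 16 was close to the other OGD-TIA cultures in both.

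Presynaptic genes gave 0 higher and 15 lower of 48, and 22 lower without culture 16, where the spread was smaller although the median went from -0.35 to -0.21. The count was 8 without CONTROL-TIA 8 and 23 without OGD-TIA 13. Beside *Slc6a7*, *Slc17a8*, a vesicular glutamate transporter, was at 1.46 to 1.56 FPKM and at 0.633, 0.836, 1.11 and 0.601 FPKM (log2 fold change -0.88). Of 47 postsynaptic scaffold and adhesion genes, 1 was higher and 14 lower (2 and 13 without culture 16). *Nrgn*, a calmodulin-binding protein of dendritic spines, was at 440, 426, 338 and 530 FPKM and at 311, 287, 258 and 289 FPKM (log2 fold change -0.58), and *Cadm2*, a synaptic adhesion molecule, at 125 to 193 FPKM and at 98.6, 102, 86.2 and 95.5 FPKM (log2 fold change -0.62). *Homer3*, a scaffold protein, was higher with overlap (log2 fold change 0.79). The vesicular glutamate transporter *Slc17a7*, a neuron marker, was at 43.7 to 56.7 FPKM and at 40.4, 36.2, 35.8 and 19.3 FPKM. Of 57 other receptors, 3 were higher and 17 lower (4 and 14 without culture 16), with *P2ry2* (1.53) and *S1pr3* (1.33) among the former and *Sstr4* (-0.97), a somatostatin receptor, and *Cnr1* (-0.61), the neuronal cannabinoid receptor, among the latter. *S1pr3* was at 2.76 to 4.36 FPKM in the controls, at 6.09, 6.44 and 6.4 FPKM in OGD-TIA 13 to 15 and at 22.5 FPKM in culture 16, without which its log2 fold change was 0.87. *Htr4*, a serotonin receptor under the filter on low values, was at 0.357, 0.239, 0.26 and 0.355 FPKM and at 0.208, 0.167, 0.253 and 0.063 FPKM with overlap.

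Of 72 calcium signaling genes, 0 were higher and 20 lower, and 2 and 20 without culture 16. Without CONTROL-TIA 6, 7 or 8, each in turn, 13 were lower. *Cacna2d2*, an auxiliary subunit of calcium channels, was at 13.3, 6.84, 12.8 and 16.7 FPKM and at 4.6, 4.29, 4.81 and 3.91 FPKM (log2 fold change -1.41, standard error 0.25, and -1.35 without culture 16), with the lowest control still above all OGD-TIA cultures. *Cacna1e* was at 19.8 to 21.4 FPKM and at 17.6, 15.5, 16.2 and 12.6 FPKM (log2 fold change -0.43). *Camk2a*, the calcium/calmodulin-dependent kinase of the postsynapse, was at 113, 108, 96.8 and 123 FPKM and at 103, 84, 77.9 and 18 FPKM. Its log2 fold change of -0.89 (standard error 0.50) was -0.32 (standard error 0.12) without culture 16, which was far below all other cultures. *Slc8a2*, a sodium–calcium exchanger, was at 32.4, 30.1, 33.3 and 31.2 FPKM and at 29, 27.2, 28.8 and 15.2 FPKM, and *Atp2b3*, a calcium pump of the plasma membrane, at 7.96 to 8.26 FPKM and at 6.42, 7.46, 6.74 and 4.06 FPKM. In both genes all OGD-TIA cultures were below the controls, and the log2 fold changes of -0.39 and -0.43 became -0.16 and -0.24 without culture 16. Of 65 sodium and potassium channel genes, 0 were higher and 22 lower (20 lower without culture 16, 13 without CONTROL-TIA 6 or 8 and 11 without CONTROL-TIA 7). *Kcnj9*, a G protein-gated potassium channel, was at 5.95, 5.32, 4.71 and 6.14 FPKM and at 2.63, 2.67, 3.49 and 2.06 FPKM (log2 fold change -1.02, standard error 0.17), and *Kcnt1*, a sodium-activated potassium channel, at 30.3 to 35.6 FPKM and at 18.3, 26.1, 23.9 and 18.6 FPKM (log2 fold change -0.60).

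Cholesterol synthesis and transport had the lowest median of all pathway lists. Of 35 genes, 3 were higher and 20 lower, with a median log2 fold change of -0.57, and 3 and 23 without culture 16, with a median of -0.35. The count of lower genes was 12 without CONTROL-TIA 5 or 7 and 13 without CONTROL-TIA 6. *Lss*, lanosterol synthase, was at 264, 237, 242 and 218 FPKM and at 154, 175, 153 and 129 FPKM (log2 fold change -0.66, standard error 0.11, and -0.58 without culture 16). *Ebp*, a sterol isomerase, was at 25.9, 21.2, 20 and 21.3 FPKM and at 17.3, 11.1, 9.81 and 10.2 FPKM (log2 fold change -0.89). Neither gene overlapped between the groups. *Npc1*, which moves cholesterol out of lysosomes, was higher at 13.1, 14, 13 and 19.5 FPKM against 10.7 to 11.6 FPKM (log2 fold change 0.38, and 0.24 without culture 16), as was *Insig2*, a brake on sterol synthesis (0.59). Hypoxia and glycolysis genes gave 1 higher and 9 lower of 39 (0 and 8 without culture 16), and the lower count ranged from 3 without CONTROL-TIA 6 to 19 without CONTROL-TIA 7 (4 without CONTROL-TIA 5 and 5 without OGD-TIA 15). *Pfkp*, a phosphofructokinase, was at 372 to 418 FPKM and at 347, 268, 268 and 219 FPKM (log2 fold change -0.53). *Hif1a* was at 92.6, 83.8, 81.8 and 92 FPKM and at 73.5, 83, 104 and 73.5 FPKM, with groups that overlapped (log2 fold change -0.08, standard error 0.12).

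Several of these values rested on how reads were divided among isoforms. Weighting isoforms by length gave log2 fold changes of 0.76 for *Pidd1*, 0.73 for *Cdk6* and 0.22 for *Insig2*. It gave -0.82 for *Cacna2d2*, -0.59 for *Ebp*, -0.38 for *Cadm2* and -0.28 for *Hsph1*. For *Bnip3l*, *Gabbr1* and *Dclk1* it gave -0.24, -0.22 and -0.16. The directions were kept in these 10 genes.

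**Figure D4:**
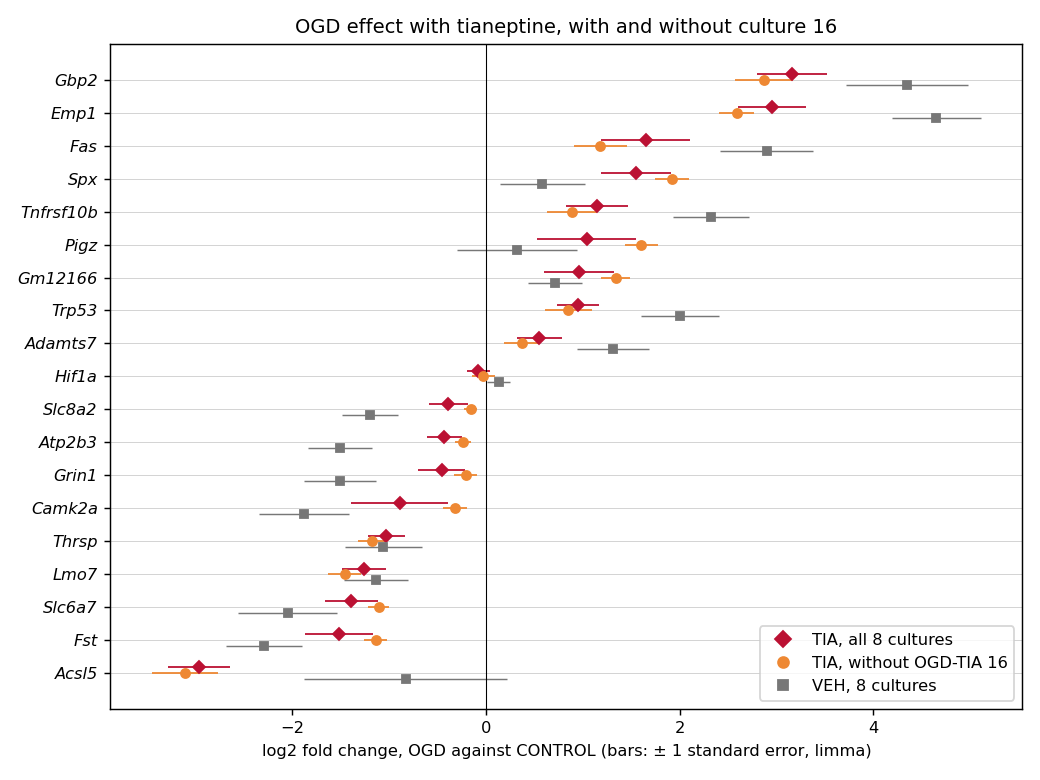
Log2 fold change of OGD against CONTROL (x axis) with ± 1 standard error for the study's genes above the filter and the 5 protein-coding genes per direction with the smallest p without culture 16, in TIA cultures with all 8 cultures (diamonds), without OGD-TIA 16 (circles) and in vehicle cultures (squares). *Camk2a* moves from -0.89 to -0.32 when culture 16 is left out, while *Spx* and *Pigz* move away from 0.

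The comparison of OGD-VEH with CONTROL-VEH, which shares no culture with the one above, was set beside it. Cell type markers moved with it too: neuron markers summed to 1040 to 1900 FPKM in OGD-VEH and 2030 to 2670 FPKM in CONTROL-VEH, astrocyte markers to 634 to 1670 and 465 to 733 FPKM, and oligodendrocyte lineage markers to 244 to 676 and 177 to 213 FPKM. Their part in the comparisons below was not tested. The vehicle comparison called 668 of 16346 genes (4.09%), 393 of them upregulated (2.40%) and 275 downregulated (1.68%). In the TIA cultures, 374 of the upregulated genes were tested, of which 361 (96.5%) were higher and 232 (62%) were higher at an unadjusted p under 0.05, against 55.8% and 11.6% of all genes. All 275 downregulated genes were tested, of which 264 (96%) were lower and 162 (58.9%) lower at this p, against 44.2% and 7.92%. Without culture 16 the shares at this p were 59.1% of 367 and 55.3% of 275. The median difference from the CONTROL-TIA mean over the upregulated genes was 0.48, 0.63 and 0.46 in OGD-TIA 13, 14 and 15 and 1.44 in OGD-TIA 16, and over the downregulated genes it was -0.44, -0.52, -0.45 and -1.23. Cultures 13 to 15 were thus close to each other in these genes and culture 16 was apart. The median log2 fold changes with TIA were 0.74 and -0.67 with 8 cultures, and 0.52 and -0.47 without culture 16. The vehicle values, with medians of 1.5 and -1.36, chose these genes and are for that reason expected to be larger. Taken the other way, 173 of the 181 genes that were separate and higher with TIA and tested with vehicle (95.6%) were higher with vehicle too (58.2% of all genes), with a median log2 fold change of 1.64, and 118 of 132 lower genes (89.4%) were lower (41.8% of all genes), with a median of -1.24.

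**Figure D5:**
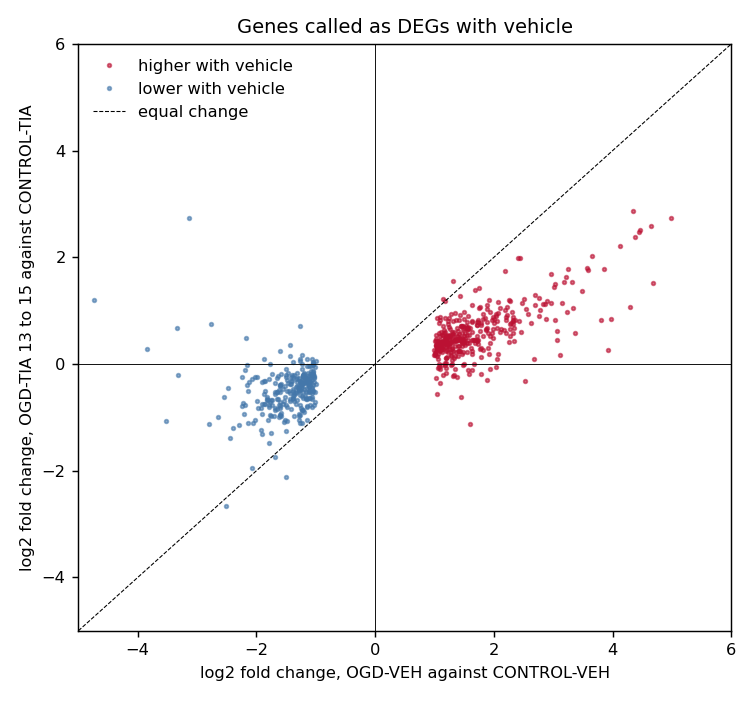
Log2 fold change of OGD-TIA 13 to 15 against CONTROL-TIA (y axis) and of OGD-VEH against CONTROL-VEH (x axis) for the genes called as DEGs with vehicle, with the dashed line marking equal change. Most upregulated genes lie above 0 on the y axis (median 0.52) and most downregulated genes below it (median -0.47), nearer to 0 than the dashed line.

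Whether the OGD effect itself differed between TIA and vehicle was tested as an interaction over the 16 cultures. Of 16313 genes, 0 passed padj of 0.05 and a log2 difference of 1, and limma gave 988 (6.06%) an unadjusted p under 0.05. A threshold of 0.05 passes a share of about 0.05 of the genes when none differs, so these 988 were not read as a difference. Array quality weights called 101 genes, while 0 were called without OGD-TIA 16 and 0 with isoforms weighted by length. The 5 protein-coding genes with the smallest p had larger log2 fold changes with vehicle than with TIA. *Camta1*, a transcription activator, was at 186, 148, 142 and 137 FPKM in CONTROL-TIA and at 154, 125, 131 and 132 FPKM in OGD-TIA (log2 fold change -0.17, against -1.13 with vehicle, interaction 0.96, standard error 0.21). *Nans*, which makes sialic acid, had log2 fold changes of 0.04 and -0.92, *Zfp512* of 0.17 and -0.69, *Exosc2*, a subunit of the RNA exosome, of -0.18 and 0.71, and *Pcdhga2*, a clustered protocadherin, of -0.02 and -0.62. Their interaction padj was 0.722. Among the study's genes, the interaction was -1.05 for *Trp53* (standard error 0.49), -1.25 for *Fas* (standard error 0.70), -1.17 for *Tnfrsf10b* (standard error 0.53) and 1.05 for *Grin1* (standard error 0.48), each with a smaller change with TIA, and none passed the adjusted threshold. A p that misses the threshold does not show that the OGD effects were equal.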

How the data were processed

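The authors deposited FPKM per isoform, estimated with eXpress from single-end stranded mRNA reads aligned with STAR to GRCm38 (Ensembl 92) and scaled by TMM. The submitters' processing notes also name FastQC and DESeq2. FPKM of 135202 isoforms were summed per gene symbol (74 lines without identifier were left out). Genes averaging 0.5 FPKM or more in the cultures compared were tested with limma 3.58.1 (R 4.3.3, trend, two-sided, Benjamini-Hochberg) on log2(FPKM + 0.1). Depth was estimated from the smallest steps of FPKM in single-isoform genes. FPKM are not counts, so no count model was run. Scripts were tested on simulated data.

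Groups came from the labels. Named genes were the study's own, the 12 per direction with the smallest p among separated genes past a log2 fold change of 1, 5 per direction without OGD-TIA 16, 2 per direction of each of 32 lists, and 5 by interaction. Gene lists and the genes in them were chosen with earlier results of these data known. Promoters came from RefSeq (GRCm38.p6). Alternatives covered pseudocount, filter, scaling, isoform weighting, culture weights, a fit of all 16 cultures and single cultures left out. Some named genes are not reported here.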

Additional observations from a re-analysis of the deposited data

Results flagged for a closer look

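In 318 groups of 4 cultures (122 named genes, list scores and marker sums), the gap of the highest or lowest culture to its neighbour was compared with the range of the group. It exceeded Dixon's critical value in 27 cases, and chance flags about 1 in 20 groups. In 17 of them the culture was OGD-TIA 16. As the highest culture, it gave a gap over range of 0.875 for *Emp1*, 0.879 for *Fos*, 0.882 for *Fosl1*, 0.876 for *Tnfrsf12a*, 0.967 for *Sesn2*, 0.878 for *Nfe2l2*, 0.979 for *S1pr3*, 0.853 for *Npc1* and 0.887 for *Aldh1l1*. As the lowest, it gave 0.872 for *Slc8a2*, 0.834 for *Cnr1* and 0.84 for *Spx*. It also gave 0.875 for the score of the NRF2 list, 0.897 for cholesterol synthesis, 0.861 for astrocyte markers, 0.855 for the summed FPKM of neuron markers and 0.862 for that of astrocyte markers. For *Spx*, unlike the others, culture 16 lay at the level of the controls.

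CONTROL-TIA 5 was the highest control for *Gbp2* (0.934), *Fosl1* (0.843), *Hmox1* (0.982) and *P2ry2* (0.867), and without it the log2 fold changes were 3.33, 3.53, 2.50 and 1.80. CONTROL-TIA 7 stood apart for *Tnfrsf10b* (0.84), *H2-Q2* (0.887) and the score of fibroblast and mural cell markers (0.833), CONTROL-TIA 8 for *Gabbr1* (0.914), CONTROL-TIA 6 for *Zfp512* (0.845) and OGD-TIA 13 for the summed FPKM of microglia markers (0.953).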

How the results depend on the processing

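The number of DEGs was the least stable result. Against 0 with all 8 cultures, upregulated and downregulated DEGs were 49 and 31 with array quality weights, 28 and 45 with isoforms weighted by length, 4 and 3 without a filter on low values and 1 and 0 with all 16 cultures in one fit, and 0 and 0 with pseudocounts of 1 or 0.01, a mean of at least 2 FPKM or median-ratio scaling. Leaving out single cultures gave 0 to 10 upregulated and 0 to 6 downregulated DEGs. Alternatives chosen after seeing the data, with OGD-TIA 16 left out, gave 66 and 59 with isoforms weighted by length and 10 and 4 without a filter. At an unadjusted p under 0.05 they gave 2983 and 1962, and 2319 and 1931. Separated genes past a log2 fold change of 1 numbered 88 higher and 49 lower with a pseudocount of 1, 105 and 79 at a mean of at least 2 FPKM, and 254 and 210 without a filter. The filter sets how many genes are tested, so counts under different filters do not measure a larger or smaller response. Separated genes were 111 and 103 with length weighting and 244 and 226 without a filter when OGD-TIA 16 was left out. Single cultures left out gave 145 to 296 higher and 127 to 221 lower, where fewer cultures make separation easier. The interaction gave 101 genes with array quality weights, 0 without OGD-TIA 16 and 0 with isoforms weighted by length.

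Among list medians, growth factor ligands were 0.00 without a filter and at a mean of at least 2 FPKM, -0.00 with length weighting and 0.14 to 0.36 with single cultures left out. Axon injury genes were -0.14 at a mean of at least 2 FPKM. Immediate early genes ranged from -0.13 to 0.10 and MAP kinase phosphatases from -0.11 to 0.01 with single cultures left out. Of 122 named genes, *Nans* reversed with median-ratio scaling (-0.00) and length weighting (-0.02) and ranged from -0.08 to 0.12 with single cultures left out, *Exosc2* reversed with length weighting (0.04), and *Pcdhga2* ranged from -0.05 to 0.01. The causes were not tested. No paired analysis was run. The cultures are numbered 1 to 16, and the labels do not say whether cultures of different groups came from one preparation. FPKM keep no read counts, so that the precision of low genes is known only from the spread of the cultures.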
